A study of Mus musculus with 6 samples.

Results

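The transcription factor p53, its main inhibitors and a set of its best known target genes were followed in bone marrow samples labelled as leukemia cells carrying floxed Brd9. The genes were chosen by name: Trp53, which encodes p53, its regulators Mdm2 and Mdm4, and the targets Ccng1, Eda2r, Sesn1, Sesn2, Trp53inp1, Zmat3 and Phlda3. All 10 were found by gene symbol among the 55487 genes of the deposited table, and 9 passed the filter on low counts. Eda2r did not, and was described mainly from its reads.

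p53 is held at a low level by MDM2, a ubiquitin ligase that marks it for degradation, and by MDM4, a relative of MDM2 that masks its activation domain. Since p53 activates Mdm2, the pair forms a negative feedback loop. Stress signals release p53 from this loop, and it then activates genes for cell cycle arrest, cell death, repair and metabolism, although much of this control acts on the p53 protein, which mRNA does not measure. In myeloid leukemia the pathway is known for limiting the survival of leukemic cells.

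The study asked what loss of Brd9 does to established MLL-AF9 leukemia, where MLL-AF9 (MA9 in the labels) is a fusion oncogene. The leukemia cells came from CD45.2+ donors of the Mx1-Cre Brd9fl/fl genotype and carried MLL-AF9 and GFP on a retroviral vector, and all 6 samples shared these alleles. In each case 1000 cells were transplanted into irradiated CD45.1+ C57BL/6 recipients, 6-week-old in the methods, which received 3 injections of PBS or of pIpC at 20 mg/kg. GFP+ bone marrow cells of femora and tibiae were taken 10 days after injection, with 3 samples per group. pIpC (polyinosinic-polycytidylic acid) imitates viral double-stranded RNA and sets off interferon, and the Mx1 promoter that drives Cre responds to interferon in blood and other cells, so that effects of pIpC itself and of Cre cannot be told apart in this design. The labels and the study's methods differ on the cells taken (GFP+ or c-Kit+), on the irradiation and on whether the libraries kept strand. Nothing states that the samples of a group came from separate animals, so p-values measure only the spread between these samples, which may be technical.

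The targeted gene was not lower in the libraries labelled pIpC. Brd9, a bromodomain subunit of a SWI/SNF chromatin remodelling complex, had normalized counts of 1631.9 to 1946.4 in PBS libraries and 2011.4 to 2263.0 in those labelled pIpC (limma adjusted p = 0.259), although this count covers the whole gene and not the floxed exons alone. Of 7 genes listed for the leukemia, 3 fell, 3 rose and 1 did not pass in pIpC-labelled libraries. Hoxa9, Hoxa10 and Meis1, which MLL-AF9 leukemia keeps active, were 20.0-, 83.6- and 16.1-fold lower, whereas the transcription factor gene Mef2c and the leukocyte genes Ptprc and Itgam were 210-, 2.03- and 2.73-fold higher, and Kit did not pass. All 11 erythroid markers, all 12 B cell markers, 11 of 12 T and NK cell markers and 12 of 13 neutrophil markers were higher in every pIpC-labelled library than in any PBS library. Of all 15020 genes tested, the groups did not overlap for 56.8%, in either direction. The mean in PBS was under 10 for 9 of the 11 erythroid, 9 of the 12 B cell and 11 of the 12 T and NK cell markers. The summed erythroid markers ranged from 1847.9 to 3076 in PBS and from 8264.5 to 10970.8 in pIpC-labelled libraries, those of B cells from 1785 to 3005.9 and from 10720.6 to 40728.7, and those of T and NK cells from 190.1 to 323.7 and from 3963.4 to 4605.1. Single genes weighed heavily in these sums. Nkg7 made up most of the T and NK cell sums (161.8 to 301.0 in PBS, 3701.6 to 4311.6 in pIpC-labelled libraries). Ighm made up most of the B cell sums (1586.8 to 2696.8 and 8397.2 to 39146.9). Tfrc made up most of the erythroid sums in PBS (1809.5 to 3044.7). Of 12 macrophage and stromal markers, 8 were higher and 3 lower in every pIpC-labelled library, with sums of 11623.1 to 16907.5 in PBS and 8076.5 to 9833.5 in pIpC-labelled libraries. Vcam1 (6014.8 to 9984.2) and Adgre1 (4155.5 to 4427.3), both lower in pIpC-labelled libraries, made up most of these sums in PBS. The defining markers Slc4a1, Rhag, Ms4a1, Cd8b1 and Trac were at 0 in all PBS libraries. In the pIpC-labelled libraries they had 827, 700, 201, 2 and 22 reads in the same order, so that Cd8b1 and Trac were near the floor in both groups. The summed neutrophil markers ranged from 74623.7 to 152501 in PBS and from 2218530 to 2302940 in pIpC-labelled libraries. Elane, the neutrophil marker that overlapped between groups, made up most of these sums in PBS (51668.7 to 108326) and had 48407.5 to 51983.9 in pIpC-labelled libraries. The X-inactivation RNA Xist ranged from 15.8 to 72.9 in PBS and from 18429.2 to 26172.5 in pIpC-labelled libraries. Xist was read as a sign of the source of the cells. Whether the groups hold cells of the same source was not tested. In bulk samples fewer cells of a type and less RNA per cell cannot be told apart, and the part of these differences in the results on p53 genes was not tested. PBS replicate 3 stood apart from the other PBS libraries by gene length, with a median log2 difference of 0.79 in the shortest of 5 length classes and of -0.61 in the longest. Reads on genes ranged from 19277439 to 22378154 in PBS and from 22348517 to 23586722 in pIpC-labelled libraries.

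Of the 10 genes, 4 carried a p53 decamer in the 250 bases before a RefSeq start site. The decamer is the 10-base unit of a p53 response element, is palindromic and so reads alike on both strands, and a full element holds a pair of them. Promoter entries existed for 8 of the 10 genes, with 10 windows in all, and Trp53inp1 and Zmat3 had none. The decamer consensus was found in 4 of these 10 windows (40%), in 10 of the 48 windows of other p53 targets (20.83%) and in 7.126% of all 32851 promoter windows. These sets differed in base composition, with a median share of G and C of 59.2%, 60.8% and 52.4% in the same order. The matches are shown because p53 contacts DNA through such decamers, and because they fall in genes that went in opposite directions below. The letters are from RefSeq on GRCm38.p6, 5′ to 3′ on the gene's strand, with the decamer in capitals and 50 bases on each side. The stretches lie at chr11:69580234-69580343 on the plus strand for Trp53, chr10:117710885-117710994 on the minus strand for Mdm2, chr11:40755412-40755521 on the minus strand for Ccng1, and chr10:41887216-41887325 on the plus strand for the downstream start site of Sesn1.
Trp53: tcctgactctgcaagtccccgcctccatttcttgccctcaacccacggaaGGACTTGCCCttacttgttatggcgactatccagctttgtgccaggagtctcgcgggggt
Mdm2: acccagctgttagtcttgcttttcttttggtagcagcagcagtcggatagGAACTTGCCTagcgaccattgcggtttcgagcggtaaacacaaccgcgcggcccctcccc
Ccng1: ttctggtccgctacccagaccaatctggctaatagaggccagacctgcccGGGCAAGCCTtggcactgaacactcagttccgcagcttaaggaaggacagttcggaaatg
Sesn1: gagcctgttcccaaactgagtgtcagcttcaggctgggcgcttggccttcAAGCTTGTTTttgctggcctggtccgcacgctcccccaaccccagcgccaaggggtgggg
The decamers began at positions -75, -186, -185 and -173 from the start, in the same order. Only the Trp53 window among the 10 also held a pair of decamer cores with no spacer, GGACTTGCCCTTACTTGTTA, which overlaps its decamer. Such a pair was present in 5.835% of all windows. Among the other targets 6 of 48 windows (12.5%) held such a pair, among them that of Cdkn1a with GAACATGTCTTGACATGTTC. A match of letters is a description and not a bound site.

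Trp53 mRNA was lower, and Mdm2 mRNA higher, in the libraries labelled pIpC. Trp53 (chr11:69580359-69591873, plus strand) had normalized counts of 3028.2, 3227.9 and 3702.8 in the PBS libraries and of 2591.0, 2280.4 and 2546.1 in the pIpC-labelled libraries. Every pIpC-labelled library lay below every PBS library, with a mean of 3320 ± 347 (SD, n = 3) for PBS against 2472 ± 168 for pIpC. Trp53 was 1.34-fold lower, a log2 fold change of -0.42 (SE 0.13) with an adjusted p of 0.042 (limma, Benjamini-Hochberg over 15020 genes). With a replicate block the adjusted p was 0.108, and without pIpC replicate 2 or 3 it was 0.171 or 0.122, against a range of 0.00433 to 0.171 over all 18 alternatives, so that the call for Trp53 depended on these libraries.

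Mdm2 (chr10:117688875-117710758, minus strand), both inhibitor and target of p53, had 1528.0, 1519.3 and 1378.4 in PBS and 2132.9, 2225.2 and 2137.1 in pIpC-labelled libraries. The groups were apart and the spread was small, with a coefficient of variation of 5.69% in PBS and 2.41% in pIpC. Mdm2 rose 1.47-fold, by 0.55 (SE 0.11) on the log2 scale with an adjusted p of 0.00772 (limma), and passed in each of the 6 fits that left out a library.

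Mdm4 (chr1:132959484-133030561, minus strand), the other inhibitor, had 6309.1, 5998.2 and 3074.7 in PBS and 6086.2, 7663.7 and 6827.0 in pIpC-labelled libraries. The groups overlapped, and PBS replicate 3 lay far below the other 5 libraries. The exons of Mdm4, 14798 bases in all, are the longest of the 10 genes. The log2 fold change of 0.48 (SE 0.29) did not pass the test, with an adjusted p of 0.230 (limma). Without PBS replicate 3 the log2 fold change was 0.15, with an adjusted p of 0.202, in a range of 0.136 to 0.461 over 18 alternatives.

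**Figure D1:**
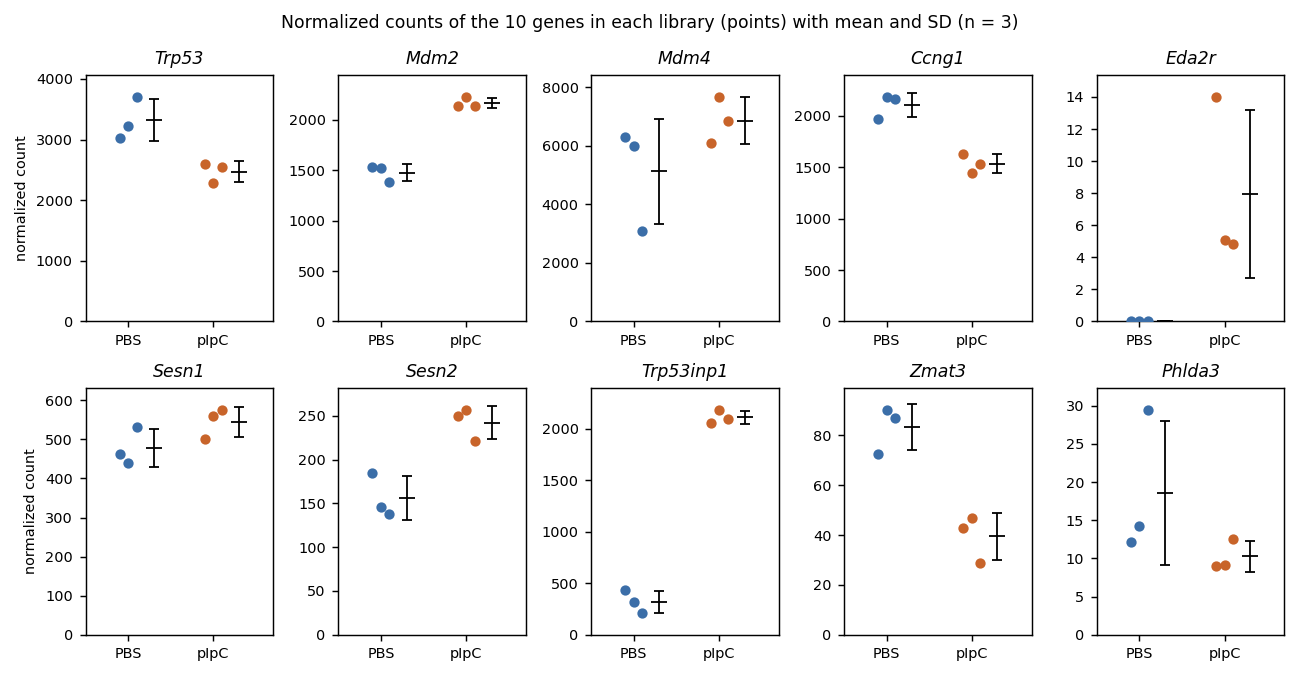
Each panel plots the normalized counts of a gene (vertical axis, starting at 0) in the 3 PBS libraries (blue points) and the 3 libraries labelled pIpC (orange points), with the mean and SD in black. The groups are apart for Trp53, Ccng1 and Zmat3, which are lower, and for Mdm2, Sesn2 and Trp53inp1, which are higher in pIpC-labelled libraries; Mdm4, Sesn1 and Phlda3 overlap, and Eda2r is at 0 in PBS.

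The relation of Mdm2 to Trp53 was also read within each library, where it does not depend on how libraries were scaled. The log2 ratio of Mdm2 to Trp53 was -0.99, -1.09 and -1.43 in the PBS libraries and -0.28, -0.04 and -0.25 in the pIpC-labelled libraries. The groups did not overlap, and the ratio was higher by 0.98 (SE 0.15) in pIpC. The exact permutation test, 2-sided, gave p = 0.1, the smallest that 3 against 3 libraries allow, and an adjusted p of 0.3 over the 3 ratios computed. The log2 ratio of Mdm2 to Mdm4 was -2.05, -1.98 and -1.16 in PBS and -1.51, -1.78 and -1.68 in pIpC, with overlapping groups and an exact permutation p of 0.9. The difference of this ratio, 0.07 (SE 0.30), turned to -0.09 without PBS replicate 1, and was 0.36 without PBS replicate 3.

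**Figure D2:**
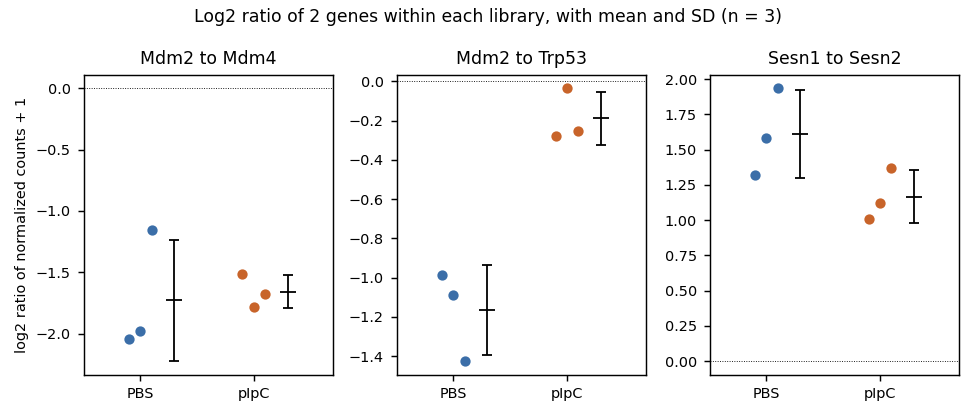
Each panel plots the log2 ratio of a pair of genes, from normalized counts + 1, in every library (points) with the group mean and SD in black. The ratio of Mdm2 to Trp53 lies between -1.43 and -0.99 in PBS and between -0.28 and -0.04 in pIpC-labelled libraries, while the ratios of Mdm2 to Mdm4 and of Sesn1 to Sesn2 overlap between groups.

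The targets moved in both directions. Trp53inp1 (chr4:11156431-11174379, plus strand), which encodes a p53-induced protein active in autophagy and stress responses, showed the largest difference of the 9 tested. It had 430.0, 317.8 and 207.1 in PBS and 2057.0, 2180.3 and 2100.3 in pIpC-labelled libraries. The lowest pIpC-labelled value lay far above the highest PBS value, and the 3 pIpC-labelled libraries varied little, with a coefficient of variation of 2.96%. Trp53inp1 rose 6.91-fold, a log2 fold change of 2.79 (SE 0.26) with an adjusted p of 0.000281 (limma), and the log2 fold change stayed between 2.51 and 3.04 when each library was left out.

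The sestrins are stress-induced proteins that restrain the growth kinase complex mTORC1 and limit oxidative damage. Sesn2 (chr4:132492032-132510501, minus strand) had 185.2, 145.8 and 138.1 in PBS and 249.5, 256.4 and 221.4 in pIpC-labelled libraries. All pIpC-labelled libraries were higher than all PBS libraries, and Sesn2 rose 1.56-fold, by 0.64 (SE 0.19) on the log2 scale with an adjusted p of 0.0353 (limma). Without pIpC replicate 1 or 2 the adjusted p was 0.117 or 0.139, and over 18 alternatives it ranged from 0.00822 to 0.139.

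Sesn1 (chr10:41809935-41908424, plus strand) had 462.9, 438.3 and 530.8 in PBS and 502.0, 558.9 and 574.4 in pIpC-labelled libraries. The groups overlapped through PBS replicate 3 and pIpC replicate 1, and the log2 fold change of 0.19 (SE 0.14) did not pass, with an adjusted p of 0.321 (limma). Without PBS replicate 3 it was 0.27, with an adjusted p of 0.0411, in a range of 0.0411 to 0.577 over 18 alternatives. A difference between the sestrins was not shown: the log2 ratio of Sesn1 to Sesn2 was 1.32, 1.58 and 1.94 in PBS and 1.01, 1.12 and 1.37 in pIpC, an exact permutation p of 0.2 and an adjusted p of 0.3.

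Ccng1 (chr11:40748552-40755311, minus strand) encodes cyclin G1, which recruits a phosphatase to MDM2 and so takes part in the feedback on p53. Its normalized counts were 1969.2, 2183.3 and 2159.2 in PBS and 1625.8, 1445.7 and 1534.6 in pIpC-labelled libraries. The groups were apart and Ccng1 was 1.37-fold lower, a log2 fold change of -0.45 (SE 0.11) with an adjusted p of 0.0208 (limma). Ccng1 and Mdm2 thus changed in opposite directions. Both promoter windows hold a decamer, neither holds a pair of cores, and binding at these matches was not tested. Without pIpC replicate 2 the adjusted p of Ccng1 was 0.108, in a range of 0.000533 to 0.108.

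Zmat3 (chr3:32334792-32366014, minus strand) encodes a zinc finger protein that binds RNA and acts on splicing and mRNA stability. It had 72.7, 90.1 and 87.1 in PBS and 42.9, 47.0 and 29.0 in pIpC-labelled libraries. Every pIpC-labelled library was lower, and Zmat3 was 2.11-fold lower, a log2 fold change of -1.08 (SE 0.27) with an adjusted p of 0.0209 (limma), and passed in each of the 6 fits that left out a library.

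The remaining targets were low. Phlda3 (chr1:135766119-135769136, plus strand), which encodes a repressor of the kinase AKT, had 12.1, 14.2 and 29.4 in PBS and 9.0, 9.2 and 12.6 in pIpC-labelled libraries. The groups overlapped and the log2 fold change of -0.71 (SE 0.43) did not pass, with an adjusted p of 0.234 (limma). PBS replicate 3 held the highest value of Phlda3, whose exons, 1559 bases in all, are the shortest of the 10, and when it was left out the log2 fold change was -0.34, with an adjusted p of 0.485. After quantile normalization, which moved the median of all genes to -0.12, Phlda3 passed at -1.56 on the log2 scale (adjusted p = 0.0347), in a range of 0.0347 to 0.485 over 17 alternatives.

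Eda2r (chrX:97333840-97377216, minus strand), a receptor of the TNF receptor family on the X chromosome, was at 0 in all PBS libraries and at 14.0, 5.1 and 4.8 in those labelled pIpC. These were 0 reads in PBS and 24 reads in the pIpC-labelled libraries. Taking 3 reads over the group as the limit that a count of 0 allows, the pIpC mean of Eda2r was 7.95-fold that limit. The limit covers counting error in PBS only, and not that of the 24 reads in the pIpC-labelled libraries. Eda2r was not tested in the main fit. Without the filter on low values all 10 genes were tested and 7 passed, 4 higher and 3 lower.

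Of the 9 genes tested, 3 rose (Mdm2, Sesn2, Trp53inp1), 3 fell (Trp53, Ccng1, Zmat3) and 3 did not pass. Of all 15020 genes tested, 45.3% passed, 25% higher and 20.4% lower in pIpC-labelled libraries, and the groups did not overlap for 56.8% of genes against 6 of the 9 members. The median log2 fold change was 0.19 over the 9 and 0.01 over all genes. The split of 3 against 3 was also given by edgeR and DESeq2 on the recovered reads, and without pIpC replicate 2 the number that passed dropped to 3, with 2 higher and 1 lower. Against this background the count of 6 in 9 is given as a description.

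The order of the levels was read per kb of exons, since counts grow with gene length. In PBS libraries Trp53 had the highest level, 821 ± 85.7 normalized counts per kb (SD, n = 3), followed by Ccng1 at 599 ± 33.4, Mdm4 at 346 ± 121, Mdm2 at 290 ± 16.5 and Sesn1 at 120 ± 12.0. Trp53inp1 (49.2 ± 17.2) and Sesn2 (45.0 ± 7.27) came next, then Phlda3 (11.9 ± 6.06), Zmat3 (7.28 ± 0.813) and Eda2r at 0. Neighbours whose ranges overlapped in PBS were Mdm4 and Mdm2, Trp53inp1 and Sesn2, and Phlda3 and Zmat3. Read within libraries, Phlda3 was above Zmat3 in all 3 PBS libraries. Mdm4 was above Mdm2, and Trp53inp1 above Sesn2, in PBS replicates 1 and 2 but not in PBS replicate 3.

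In pIpC-labelled libraries Trp53 was again highest at 611 ± 41.5 per kb (SD, n = 3). Mdm4 (464 ± 53.3), Ccng1 (437 ± 25.6) and Mdm2 (426 ± 10.3) followed, with ranges that overlapped from each to the next. Trp53inp1 stood at 326 ± 9.66, above Sesn1 at 137 ± 9.57 and Sesn2 at 69.8 ± 5.34, whereas it was below Sesn1 in PBS. Phlda3 (6.59 ± 1.30), Zmat3 (3.47 ± 0.825) and Eda2r (1.35 ± 0.887) were lowest.

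**Figure D3:**
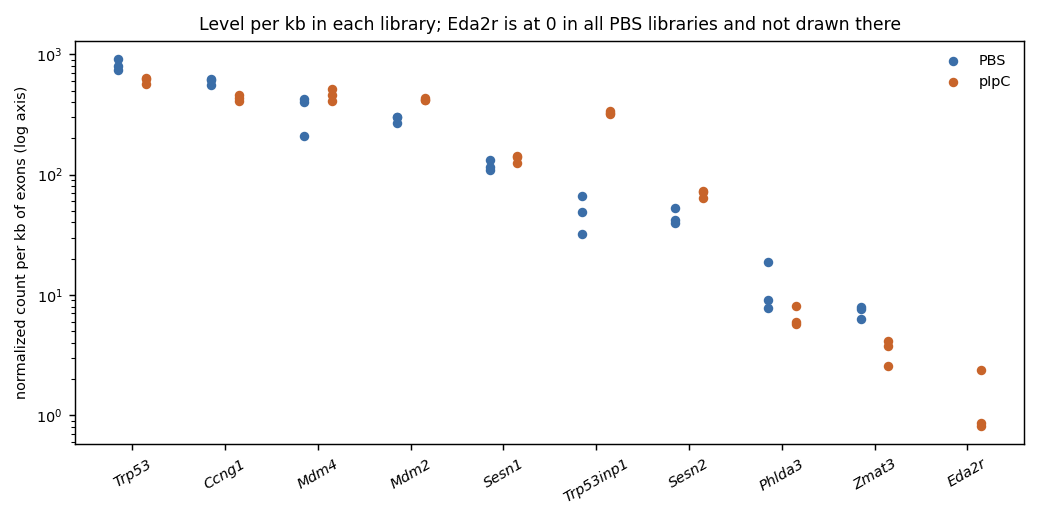
Points give the normalized count per kb of exons on a log axis for each gene in the PBS (blue) and pIpC-labelled (orange) libraries, ordered by the PBS mean. Trp53 is highest in both groups, Trp53inp1 moves from 49.2 to 326, and Eda2r, at 0 in PBS, is drawn for pIpC alone.

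Over the 6 libraries the genes most like Trp53, by Pearson's r of log2 values, were Fpgs (r = 0.999), which encodes folylpolyglutamate synthase, Trit1 (0.997), a tRNA modifying enzyme, and Mphosph6 (0.996), a protein bound to the RNA exosome. Among 10486 genes with a mean of at least 100, 573 had an r of at least 0.95. The 6 points fall into the PBS and pIpC-labelled groups, which were apart for Trp53, so that r is given as a description. Of the members with that mean, Ccng1 had an r of 0.96 with Trp53, and Mdm2, Sesn2 and Trp53inp1 had -0.96 each, Mdm4 -0.84 and Sesn1 -0.49.

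The rest of the pathway was read from lists of other p53 targets by role. Of 41 such genes 40 were tested, 11 rose, 12 fell and 17 did not pass, with a median log2 fold change of -0.05, where 25% of all genes tested were higher and 20.4% lower. Leaving out any pIpC-labelled library lowered the number that passed from 23 to between 13 and 15, in both directions. Genes named in the next paragraphs to spell out counts were in part chosen after their values were seen.

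Of 9 arrest genes tested, 3 rose (Ccng2, Fbxw7 and Gtse1) and 1 fell, against 25% higher and 20.4% lower of all genes tested. The gene that fell was Cdkn1a, which encodes the cyclin-dependent kinase inhibitor p21 and is the best known target of p53 in arrest. Cdkn1a had 577.1, 614.4 and 602.0 in PBS and 162.7, 197.2 and 148.0 in pIpC-labelled libraries. All pIpC-labelled values lay far below the PBS values, and Cdkn1a was 3.54-fold lower, a log2 fold change of -1.82 (SE 0.16) with an adjusted p of 0.000234 (limma).

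Of 13 death genes, 4 rose (Perp, Dram1, Apaf1 and Tnfrsf1a) and 5 fell, against 25% higher and 20.4% lower of all genes tested. Pmaip1, which encodes the BH3-only protein NOXA, had 3005.7, 2836.2 and 1857.1 in PBS and 167.7, 106.3 and 154.7 in pIpC-labelled libraries, the largest drop in the list at 17.8-fold and -4.15 (SE 0.26) on the log2 scale (limma adjusted p = 5.8e-05). Bbc3, which encodes the BH3-only protein PUMA, had 173.9, 224.7 and 236.5 in PBS and 51.9, 57.2 and 51.3 in pIpC-labelled libraries. Both of these activators of mitochondrial cell death were lower in every pIpC-labelled library, Bbc3 by 3.88-fold, a log2 fold change of -1.95 (SE 0.21) with an adjusted p of 0.000502 (limma).

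Bax, the pore-forming effector downstream of them, had 660.2, 699.4 and 1765.4 in PBS and 458.1, 363.7 and 429.3 in pIpC-labelled libraries, with a log2 fold change of -1.17 (SE 0.38, limma adjusted p = 0.0513). PBS replicate 3 was far above the rest, and when it was left out the log2 fold change was -0.71 and passed. Without pIpC replicate 1, 2 or 3 Bax did not pass (adjusted p = 0.117, 0.159 and 0.130, limma). Aen, which encodes an apoptosis-enhancing nuclease, had 1001.9, 1261.2 and 1294.6 in PBS and 686.7, 673.3 and 652.7 in pIpC-labelled libraries. The groups were apart, and Aen fell by 0.81 (SE 0.14) on the log2 scale (limma adjusted p = 0.00454). The death receptor gene Fas had 157.5, 139.7 and 273.9 in PBS and 164.7, 163.5 and 146.0 in pIpC-labelled libraries. These groups overlapped, and the log2 fold change of -0.20 (SE 0.28) did not pass (limma adjusted p = 0.592).

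Of 12 genes of repair and metabolism, 2 rose (Sesn3 and Gls2) and 6 fell, against 25% higher and 20.4% lower of all genes tested. Those that fell were Ercc5, Xpc, Gpx1, Ak1, Tigar and Fdxr, with log2 fold changes of -1.04 to -0.67. The median log2 fold change of the list was -0.71. Xpc, Gpx1, Ak1 and Fdxr were highest in PBS replicate 3. Sesn3, the third sestrin, had 90.0, 94.1 and 54.3 in PBS and 260.5, 356.6 and 280.4 in pIpC-labelled libraries, and rose 3.80-fold (log2 fold change 1.93, SE 0.27, limma adjusted p = 0.00176). It differed in the same direction as Sesn2. Ddb2, a damage sensor of nucleotide excision repair, had 282.1, 274.3 and 172.0 in PBS and 303.4, 315.7 and 327.8 in pIpC-labelled libraries, apart between groups, but did not pass (log2 fold change 0.41, SE 0.22, limma adjusted p = 0.196).

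Of 6 genes of feedback and other roles, 2 rose (Ccnd1 and Cop1) and 0 fell, against 25% higher and 20.4% lower of all genes tested. Ppm1d, a phosphatase that shuts off p53 signalling, had 579.7, 551.6 and 744.6 in PBS and 598.8, 629.4 and 567.6 in pIpC-labelled libraries. The groups overlapped and the log2 fold change was -0.05 (SE 0.16), with a limma adjusted p of 0.819. Ccnd1, which encodes cyclin D1 and promotes entry into the cell cycle, had 9.5, 8.1 and 9.1 in PBS and 280.5, 162.4 and 220.5 in pIpC-labelled libraries, with a log2 fold change of 4.46 (SE 0.28, limma adjusted p = 6.5e-05).

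**Figure D4:**
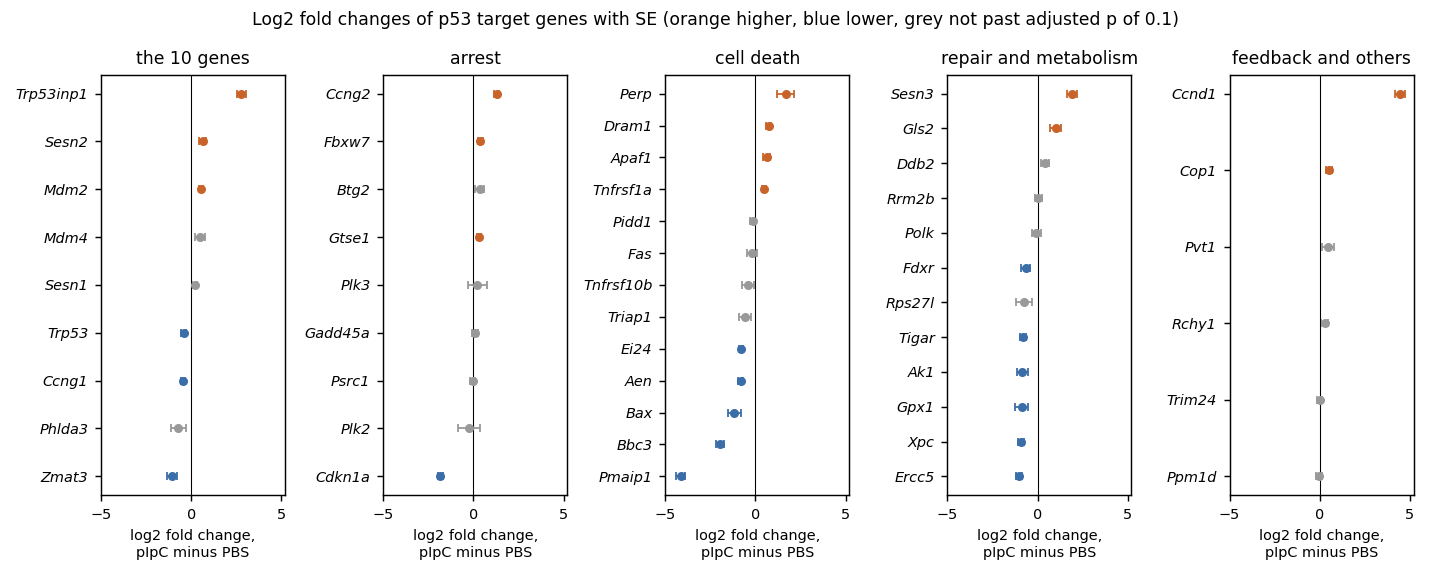
Each point is the log2 fold change of a tested gene, libraries labelled pIpC minus PBS, with its SE, in panels by role. The 9 genes run from -1.08 for Zmat3 to 2.79 for Trp53inp1, the death genes reach -4.15 for Pmaip1, and Cdkn1a is the only arrest gene in blue.

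Of 23 genes upstream of p53 or in its family, 21 were tested, 4 rose, 5 fell and 12 did not pass, where 25% of all genes tested were higher and 20.4% lower. The relatives Trp63 and Trp73 were almost silent, with 0 reads and 2 reads in PBS and 1 read each in pIpC-labelled libraries. Cdkn2a, whose ARF product inhibits MDM2, had 93.4, 130.6 and 271.6 in PBS and 16.0, 4.1 and 18.4 in pIpC-labelled libraries. Cdkn2a was thus lower in every pIpC-labelled library, by 12.7-fold (log2 fold change -3.66, SE 0.63, limma adjusted p = 0.00425). This count covers the whole gene, so the transcript for ARF was not read on its own.

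Usp7, a deubiquitinase that stabilises MDM2 and p53, had 3947.1, 3673.2 and 2444.4 in PBS and 5115.1, 5435.4 and 5233.4 in pIpC-labelled libraries, and rose by 0.68 (SE 0.20) on the log2 scale (limma adjusted p = 0.0347). The genes of the ribosomal proteins that can bind MDM2 fell, with log2 fold changes of -1.22 (SE 0.38) for Rpl5 and -1.20 (SE 0.40) for Rpl11 (limma adjusted p = 0.0431 and 0.0567). PBS replicate 3 stood apart, as Rpl5 was at 25479.6 and 25513.3 in the other PBS libraries and at 65500.8 there, against 14258.7 to 16032.8 in pIpC-labelled libraries. Without it the log2 fold changes of Rpl5 and Rpl11 were -0.77 and -0.71, and without any of the pIpC-labelled libraries neither gene passed (limma adjusted p = 0.112 to 0.162). Trp53bp2 and Setd7, which encode a p53-binding protein and a lysine methyltransferase, rose by 1.08 (SE 0.31) and 0.83 (SE 0.27) on the log2 scale (limma adjusted p = 0.036 and 0.0546). Without pIpC replicate 2 or 3 none of Usp7, Trp53bp2 and Setd7 passed (limma adjusted p = 0.110 to 0.165), nor did Setd7 without pIpC replicate 1.

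Atm and Chek2 encode the kinases that activate p53 after DNA breaks. Atm had 1226.9, 1382.7 and 183.3 in PBS and 718.6, 873.5 and 763.0 in pIpC-labelled libraries. The log2 fold change of 0.21 (SE 0.74) did not pass (limma adjusted p = 0.845), and its direction held neither across methods nor libraries: it was -0.26 with edgeR, -0.25 with DESeq2 and -0.08 with the length trend removed, and without PBS replicate 3 it was -0.73 and passed (limma adjusted p = 0.000283, in a range of 0.000283 to 0.933 over 18 alternatives). Chek2 had 942.2, 896.8 and 1016.2 in PBS and 818.4, 872.5 and 872.2 in pIpC-labelled libraries, apart between groups, and did not pass (log2 fold change -0.15, SE 0.12, limma adjusted p = 0.338). The number of upstream genes that passed was 16 without PBS replicate 3, and 2 without pIpC replicate 2 or 3.

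Genes of the cell cycle that p53 represses through p21 and the DREAM complex were mostly higher. Of 20 tested with limma, 13 rose, 0 fell and 7 did not pass, with a median log2 fold change of 0.45, against 25% of all genes tested that were higher and 20.4% that were lower. None was lower at an unadjusted p under 0.05 (0 of 20), and edgeR and DESeq2 also called 0 lower. Ccna2, which encodes cyclin A2, had 2372.4, 2707.6 and 2269.0 in PBS and 4634.0, 4709.0 and 4702.5 in pIpC-labelled libraries. Ccna2 rose 1.92-fold, by 0.94 (SE 0.12) on the log2 scale (limma adjusted p = 0.00107), with the groups apart. The proliferation marker Mki67 had 17102.6, 19632.4 and 9267.2 in PBS and 26440.6, 32171.9 and 28267.3 in pIpC-labelled libraries, with a log2 fold change of 0.98 (SE 0.29, limma adjusted p = 0.0391), and did not pass without pIpC replicate 2 or 3 (adjusted p = 0.137 and 0.114). Mki67 was lowest in PBS replicate 3, and with a library left out its log2 fold change ranged from 0.66 to 1.20. With a replicate block 7 of the 20 rose and after quantile normalization 8, and leaving out pIpC replicate 1, 2 or 3 gave 8, 5 and 5.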

How the data were processed

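RNA-seq of 3 PBS and 3 pIpC-labelled samples was used. The authors deposited gene counts normalized by a size factor per library (a signal, not raw reads). The study's methods name nf-core/rnaseq (STAR, RSEM) with DESeq2, and the submitters' processing notes HISAT2 2.2.1, featureCounts and edgeR on GRCm38, so which made the table is uncertain. Dividing each column by its smallest value above 0 gave whole reads throughout (100%, tolerance 0.01 reads), and these recovered reads were used for count tests. limma 3.58.1 (R 4.3.3) with its trend option was run on log2(normalized count + 1), which understates changes of low genes, for 15020 genes with a mean of at least 10, 2-sided, with a Benjamini-Hochberg adjusted p under 0.1. Fold changes are on that scale. edgeR 4.0.16 and DESeq2 1.42.0 on recovered reads were alternatives. The limma fit was checked on simulated counts with few changed genes, no length trend and no outlying library. That check does not cover the share of changed genes or the shift of PBS replicate 3 in these data. Positions and exon lengths came from GENCODE M21 (GRCm38), in which no exon of the 10 genes overlapped another gene's exons, and promoters from RefSeq (GRCm38.p6). The members and lists were chosen with earlier results of these data known. Genes named were the members, 16 fixed pathway genes, the 2 highest and 2 lowest per list past the threshold with a mean of at least 100, the 3 genes most like Trp53, Brd9 and Xist. Marker genes, and genes that spell out a small count, were named beside these after their values were seen. Same-numbered libraries' deviations correlated by -0.117, 0.143 and 0.041, so no pairing was used. A count of 0 was taken to allow 3 reads over the group, which covers counting error of that group only. A marker gene is not reported here and was left out of its list.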

Additional observations from a re-analysis of the deposited data

How the results depend on the processing

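The alternatives were quantile normalization, pseudocounts of 0.1 and 10, no filter, a minimum mean of 50, log ratios centred on their median, no intensity trend, a replicate block, edgeR and DESeq2 on recovered reads, an adjusted p under 0.05 and each library left out; removal of the trend with exon length was chosen after seeing the data. Among 161 comparisons of the 9 tested members, 153 kept their direction and side of the threshold, 6 lost the call, 2 gained it and 0 changed direction. Among all 31 named genes, 8 of 557 comparisons changed direction, all of genes that did not pass: Atm (-0.26 with edgeR, -0.25 with DESeq2, -0.078 with the length trend removed, -0.73 to 0.72 with a library left out), Fas (0.013 with the length trend removed, -0.39 to 0.089) and Ppm1d (0.042 and -0.14 to 0.081). The replicate block left 5 members called (3 higher, 2 lower) and gave 7 cell cycle genes against 13; quantile normalization gave 8 of these. With a library left out, the number called ranged from 3 to 7 for the members, 13 to 27 for other targets, 2 to 16 for upstream genes and 5 to 18 for cell cycle genes. The log2 ratio of Mdm2 to Mdm4 differed by -0.088 to 0.36, Mdm2 to Trp53 by 0.85 to 1.07 and Sesn1 to Sesn2 by -0.59 to -0.28. The causes were not tested. With 3 libraries per group, exact tests could not go below p = 0.1.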
